A study of Mus musculus with 11 samples.

Results

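Rab GTPases, the small switch proteins of vesicle traffic, were read here as the 56 genes whose symbol is Rab followed by a number and at most 1 letter and 1 digit, out of 17475 genes in a table of macrophages sorted from mouse mammary tumours. The table lists Rab1a under the older symbol Rab1 and Rab29 under Rab7l1, and Rab7b is not analysed here. The 11 libraries came from 6 female mice backcrossed to B6, and 5 mice gave both cell types. MYC mice carried S100a8-cre, the Cre-activated Rosa26-LSL-MYC allele and the PyMT mammary tumour transgene, and control mice carried PyMT. Both genotypes were lethally irradiated at 7 weeks of age, received total bone marrow from wild-type B6 mice, and went on a low protein diet 2 weeks later, for 6 weeks. The groups were 3 MYC TAM libraries (mice 2, 4 and 6), 2 MYC MTM libraries (mice 2 and 4), 3 control TAM libraries (mice 1, 3 and 5) and 3 control MTM libraries (the same control mice). TAMs, tumour-associated macrophages, were sorted as CD45+ F4/80+ Vcam+ cells, and MTMs, mammary tissue macrophages, as CD45+ F4/80+ Vcam- FOLR2+ cells, both after exclusion of DAPI, SiglecF, Ly6G, B220 and Ly6C. The S100a8 promoter is active mainly in neutrophils and their precursors, and blood cells of every mouse were rebuilt from wild-type marrow, so how many sorted macrophages carried the MYC allele is not given in the sources used here.

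Rab proteins cycle between a GDP-bound form held in the cytosol and a GTP-bound form on a membrane, where they recruit tethers, motors and sorting proteins. Exchange factors switch them on, GTPase-activating proteins switch them off, and a geranylgeranyl lipid anchors them in the membrane. In macrophages the order of Rab proteins on a phagosome, with Rab5 on the young organelle and Rab7 on the mature one, accompanies its route to the lysosome.

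Macrophage transcripts were abundant in every library, with Cd68 at 10.18 to 10.41 in MYC TAMs, 9.42 and 9.50 in MYC MTMs, 8.17 to 8.51 in control TAMs and 8.39 to 8.65 in control MTMs on the deposited log2 scale. The macrophage growth factor receptor gene Csf1r was at 7.59 to 8.09 in MYC TAMs, 9.92 and 10.03 in MYC MTMs, 10.25 to 10.74 in control TAMs and 9.91 to 10.24 in control MTMs. The gate marker Folr2 separated the cell types, with 1.07 to 3.62 in MYC TAMs, 8.07 and 8.45 in MYC MTMs, 0.96 to 1.77 in control TAMs and 7.67 to 8.05 in control MTMs. Vcam1 transcript did not separate the cell types in the MYC mice, although the gate uses Vcam. It was at 0.96 to 2.82 in the libraries labelled MYC TAMs, 2.31 and 2.32 in MYC MTMs, 7.64 to 8.60 in control TAMs and 5.25 to 6.86 in control MTMs. The mouse Myc gene was at 1.78 to 2.16 in MYC TAMs, 2.87 and 3.02 in MYC MTMs, 2.66 to 3.18 in control TAMs and 2.53 to 2.75 in control MTMs. Whether that row counts reads of the MYC transgene is not given in the sources used here. The estimated depth was 33.8 to 44.8 M reads per library, and MYC TAM mouse 4 stood apart with 581 genes without a read, against 2072 to 3522 in the others. Since whole sorted populations were sequenced, fewer cells of a type and less RNA per cell cannot be told apart.

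Members spanned a wide range of levels. Values are log2(x + 1), where x is scaled reads per gene length, so that levels can be compared between genes. Averaged over the 11 libraries, 12 members had a level of 5 or more, 24 had 1 to 5 and 20 were under 1. The most abundant were Rab7, which directs late endosomes and phagosomes to lysosomes (7.48), Rab2a (7.10) and Rab1b (6.85), which act between the endoplasmic reticulum and the Golgi, Rab18 of the endoplasmic reticulum and lipid droplets (6.50) and Rab24, linked to autophagy (6.41). Group means of 43 members lay within 1 log2 unit of each other, and 13 spread over 1 or more. Depth limits few of them, since 35 members had a median of 100 or more estimated reads per library and 5 had fewer than 10.

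**Figure D1:**
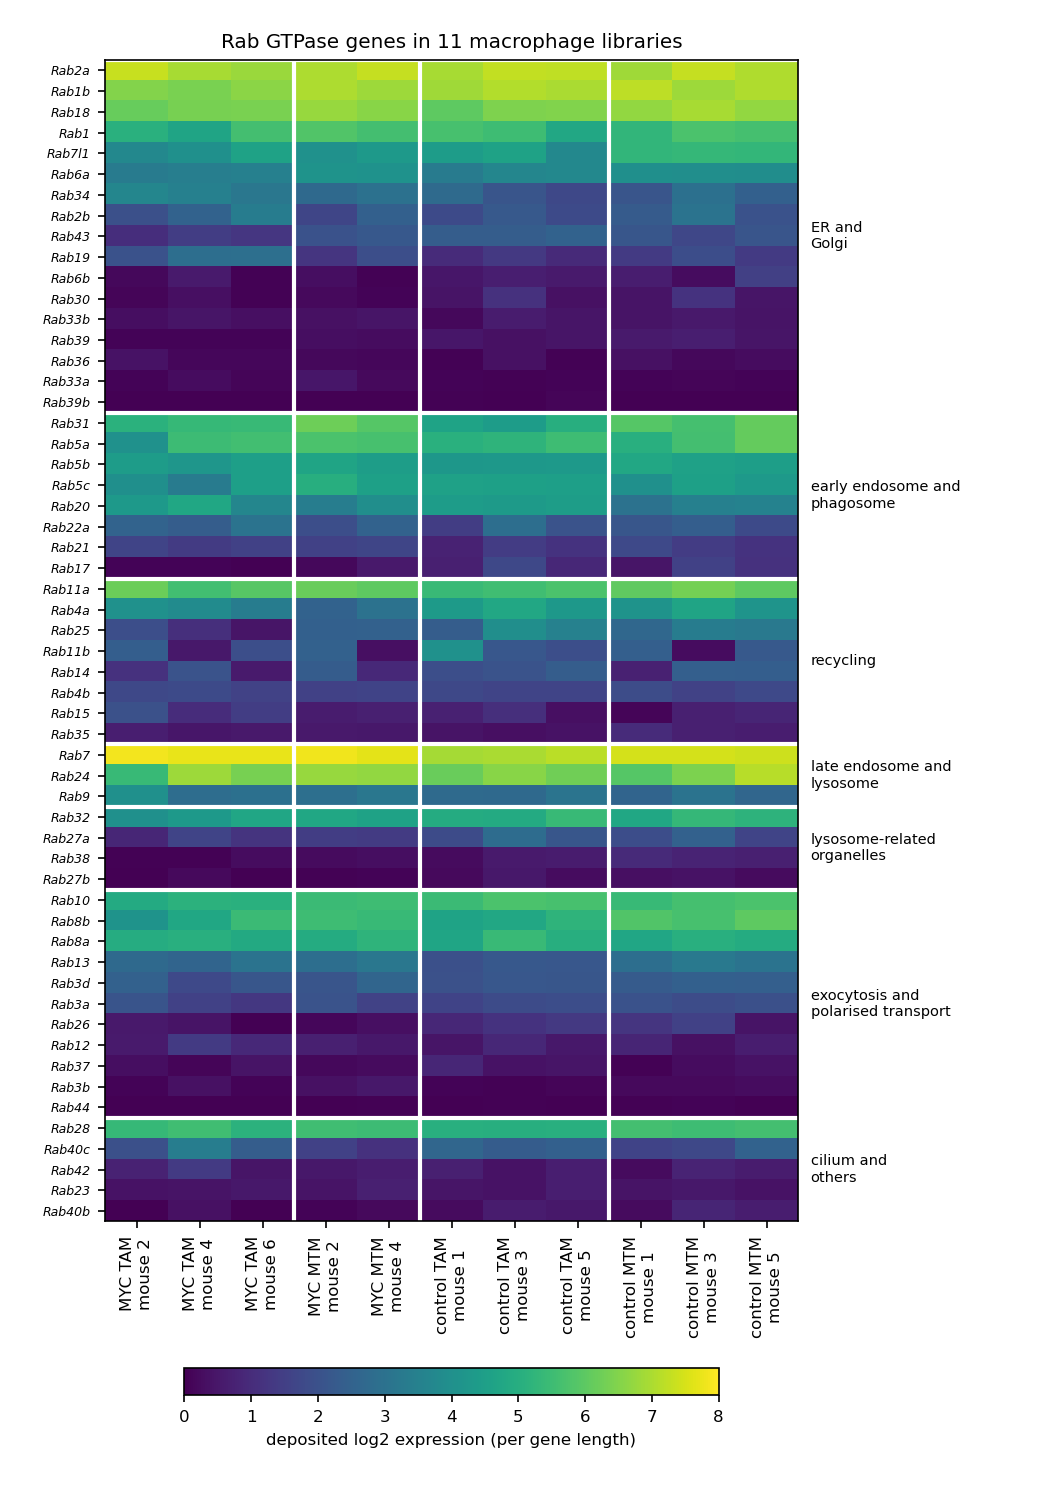
Deposited log2 expression of the 56 Rab genes (rows, grouped by role) in each of the 11 libraries (columns, white lines between groups). Rab7 is the brightest row in all MYC libraries, between 7.67 and 7.87, and Rab2a, Rab1b and Rab18 are bright in every column.

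Rab7 made up more of the family's transcripts in the MYC mice. With the log scale undone and per-length levels summed over the 56 genes, Rab7 took 22.3%, 19.4% and 19.1% of the sum in MYC TAMs and 12.4%, 11.3% and 12.9% of it in control TAMs. Its share was 17.2% and 16.3% in MYC MTMs and 15.2%, 13.6% and 12.5% in control MTMs. Neither pair of ranges overlapped, and the shares were not tested. The summed level itself was 1046 to 1107 in MYC TAMs and 973 to 1122 in control TAMs, and 1240 to 1302 in MYC MTMs and 1172 to 1345 in control MTMs, so those ranges overlapped in both cell types.

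**Figure D2:**
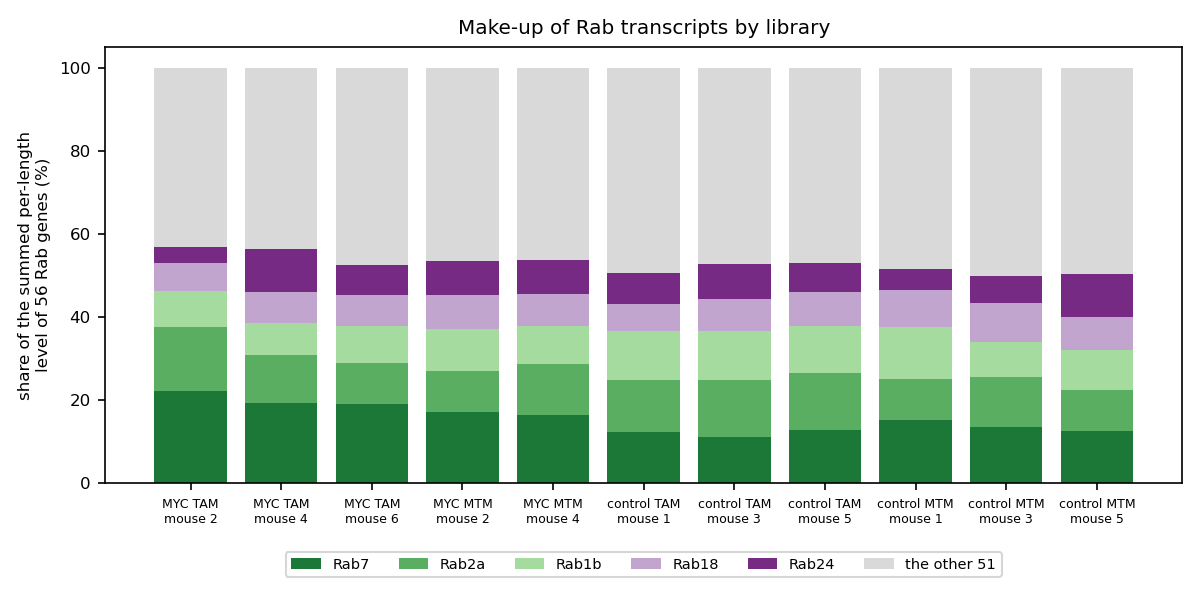
Share of the summed per-length level of 56 Rab genes (y axis, %) taken by the 5 most abundant members and by the other 51, one bar per library. The Rab7 segment covers 19.1% to 22.3% of the bar in MYC TAMs and 11.3% to 12.9% in control TAMs.

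The comparison of MYC TAMs with control TAMs asks how TAMs of MYC mice differ from those of controls on the same diet. In MYC TAMs Rab7, Rab34, Rab19 and Rab13 were higher, and Rab43, Rab39, Rab25, Rab10 and Rab17 were lower. These are 9 of 56 members (16.1%), against 15.9% of all 17475 genes past the same threshold, a Benjamini-Hochberg adjusted p below 0.05 in limma. Upward calls took 3.89% of all genes and downward calls 12% of them, so the members' count is near the background. Without overlap between the groups' libraries were 7 members that were higher, beside 8.03% of all genes, and 12 that were lower, beside 22.1%. The median member difference was -0.10, and that of all genes -0.02. Many genes are near the floor, so the order of these medians depends on the genes kept. When genes averaging under 1 were dropped, the median was -0.11 for 36 members and -0.21 for all 9375 genes. In that fit 10 of the 36 members and 2656 of the 9375 genes passed. Centring each library on its median moved the median of all genes to 0.19 and turned the split of calls, from 680 higher and 2098 lower over all genes to 3516 higher and 1513 lower, and among members from 4 higher and 5 lower to 9 higher and 4 lower. Quantile normalisation gave 1107 higher and 1553 lower over all genes, and 6 and 6 among members.

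The comparison of control TAMs with control MTMs asks how the gates differ in tumours without the MYC allele. Rab31 and Rab13 were lower in TAMs and no member was higher, 2 of 56 (3.57%), against 2.37% of all genes called (0.744% higher, 1.63% lower). Without overlap between groups were 3 members that were higher (background 6.9%) and 15 that were lower (background 12%). The median member difference was -0.06, and that of all genes -0.00. When genes averaging under 1 were dropped, these were -0.16 and -0.04. With the mouse as a fixed block 2 members passed as well, Rab31 and Rab20, which was higher in TAMs (1.07, adjusted p = 0.0465), while Rab13 did not (adjusted p = 0.0696).

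In MYC TAMs against MYC MTMs the only member to pass in the main limma fit was Rab6a, which was lower in TAMs. That is 1 of 56 (1.79%) beside 4.49% of all genes (0.664% higher, 3.82% lower). Without overlap between groups were 5 members that were higher (background 6.82%) and 13 that were lower (background 23.5%). The median member difference was -0.12, against -0.01 over all genes. When genes averaging under 1 were dropped, these were -0.19 and -0.20. Over all genes the split of 116 higher and 668 lower calls became 207 and 372 after centring on library medians. It became 171 and 400 after quantile normalisation. With the mouse as a fixed block Rab6a did not pass (adjusted p = 0.111), and Rab5c did, lower in TAMs (-1.14, adjusted p = 0.0458). In MYC MTMs against control MTMs Rab4a was lower and no other member passed, 1 of 56 beside 0.618% of all genes (0.338% higher, 0.28% lower). At an unadjusted p below 0.05 there were 9 members, beside 10.1% of all genes. Without overlap were 5 members that were higher (background 11.1%) and 13 that were lower (background 20.1%). The median member difference was -0.04, against -0.02 over all genes. When genes averaging under 1 were dropped, these were -0.03 and -0.06. The cell types' difference in MYC mice minus that in controls passed for 0 of 56 members in limma, beside 1.24% of all genes (0.24% higher, 0.996% lower). At an unadjusted p below 0.05 there were 8 members (14.3%), beside 10.9% of all genes.

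**Figure D3:**
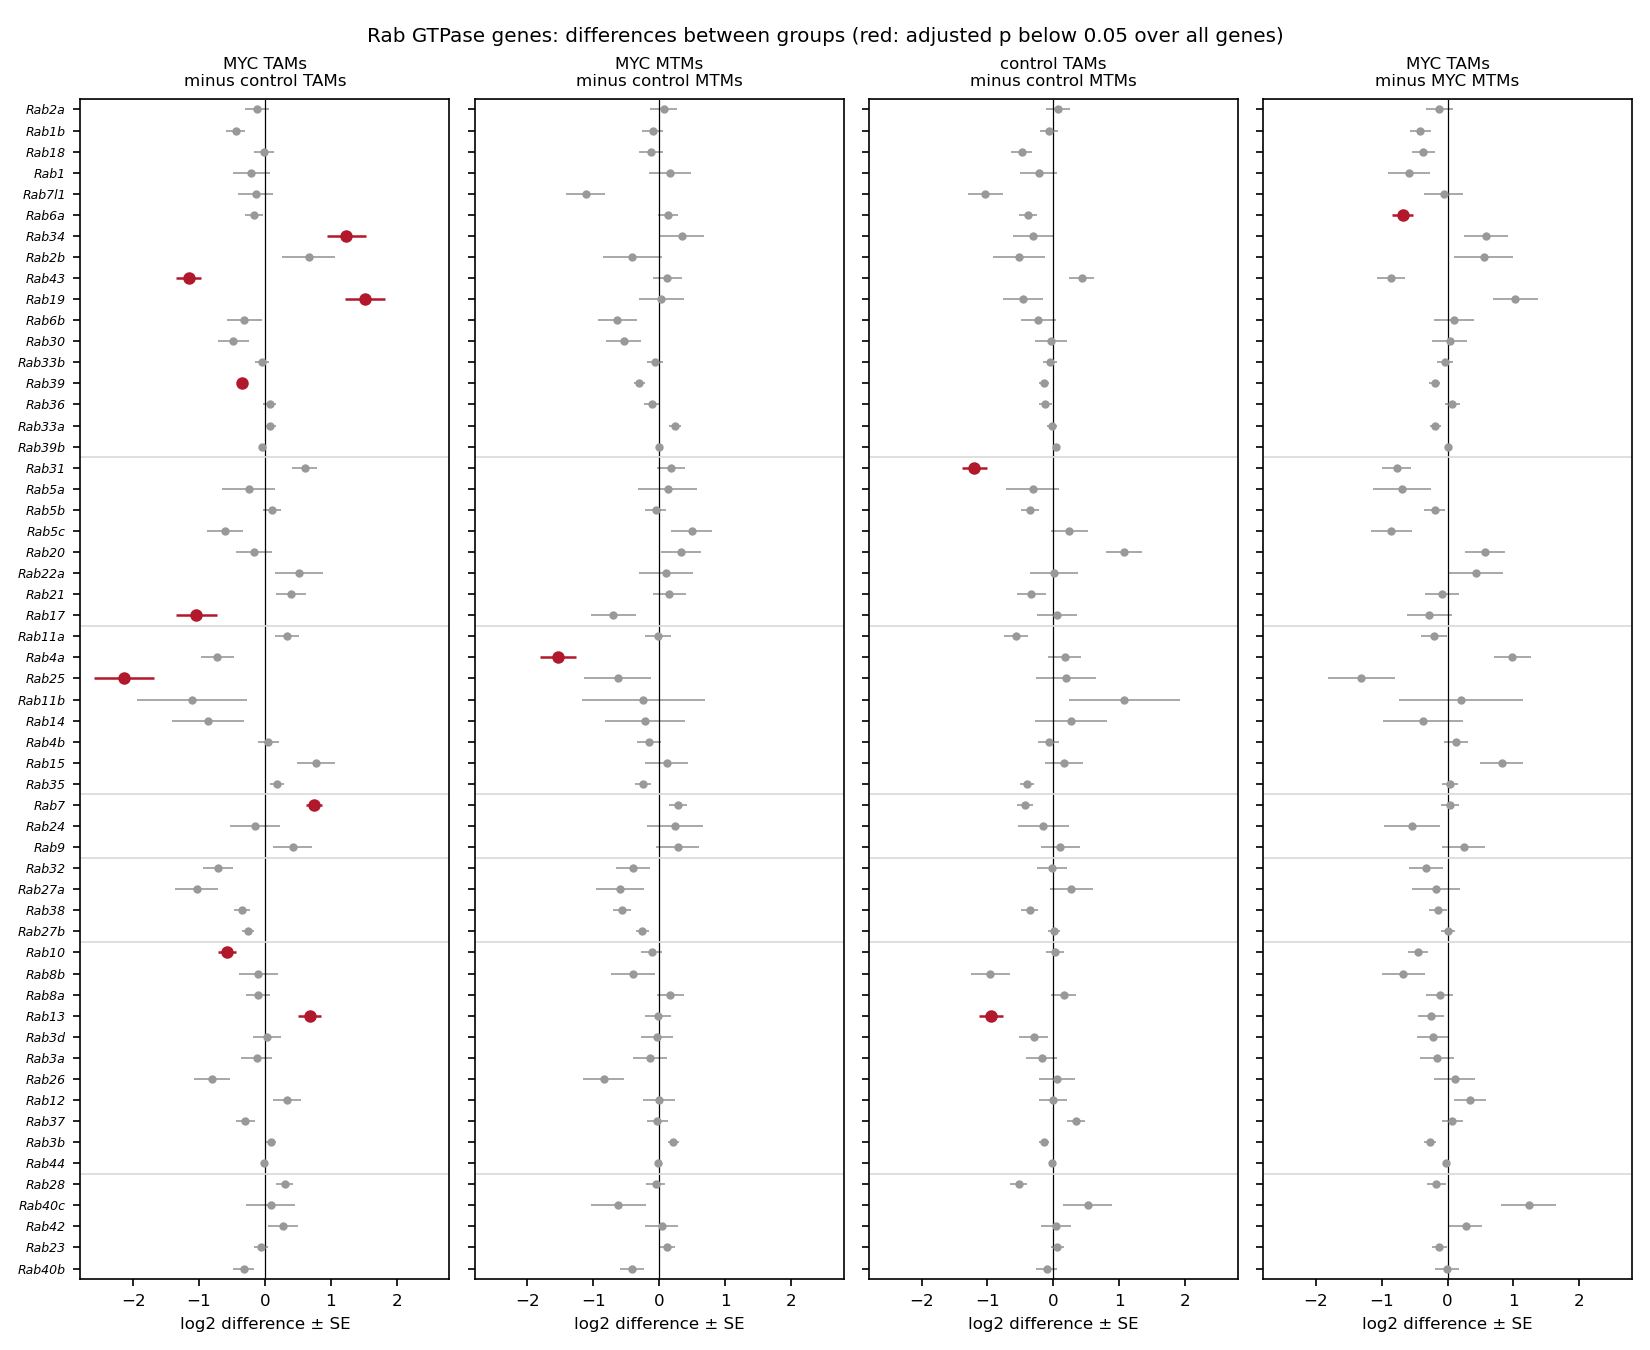
Log2 differences with standard errors (x axis) of the 56 Rab genes (rows, in role order) in 4 comparisons (panels). Red points passed an adjusted p of 0.05 over all genes, 9 in MYC TAMs minus control TAMs, 1 in MYC MTMs minus control MTMs, 2 in control TAMs minus control MTMs and 1 in MYC TAMs minus MYC MTMs.

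Among the 3 late endosome and lysosome members, Rab7 rose in MYC TAMs against control TAMs, 1 of 3 beside 15.9% of all genes called. Rab7 measured 7.87, 7.73 and 7.73 in MYC TAMs, 7.81 and 7.67 in MYC MTMs, 6.93, 6.99 and 7.16 in control TAMs, and 7.48, 7.49 and 7.40 in control MTMs. All 3 MYC TAM libraries lay above all control TAM libraries, and the control TAMs were the lowest group. The difference between MYC TAMs and control TAMs was 0.75 ± 0.12 (SE; means 7.78 ± 0.0840 and 7.03 ± 0.117, SD, n = 3 each), or 1.68-fold, with an adjusted p of 0.00295 in limma. It passed in all 21 alternatives that gave a value, with adjusted p from 0.000684 to 0.0367. MYC MTMs also lay above control MTMs without overlap, by 0.28 (adjusted p = 0.539), and control TAMs below control MTMs without overlap, by -0.43 (adjusted p = 0.122). Rab7 had the smallest spread within groups of the members with a mean of 1 or more, a pooled SD of 0.0900.

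Because Rab7 carries the clearest difference, the 250 bases before its upstream RefSeq start (GRCm38.p6, chr6:88045271-88045520, minus strand) are shown, with 59.2% G or C. Capitals would mark the GC box GGGCGG or its reverse complement, and this window holds none. The window of a second RefSeq start (chr6:88045018-88045267, minus strand), which is not shown, holds 2.
Rab7: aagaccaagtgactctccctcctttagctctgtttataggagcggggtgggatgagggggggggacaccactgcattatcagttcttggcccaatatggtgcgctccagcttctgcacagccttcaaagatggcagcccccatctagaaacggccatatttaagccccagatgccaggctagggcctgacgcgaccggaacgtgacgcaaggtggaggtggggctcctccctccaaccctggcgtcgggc

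Rab24 measured 5.40, 6.84 and 6.35 in MYC TAMs, 6.76 and 6.70 in MYC MTMs, 6.17, 6.59 and 6.27 in control TAMs, and 5.90, 6.43 and 7.15 in control MTMs. Rab24 shares 62.4% of its exonic length with Prelid1 on the opposite strand, and since the strand setting of the counting is not given in the sources used here, reads of the 2 genes may be mixed. MYC TAM mouse 2 was the lowest and control MTM mouse 5 the highest. Rab9, which returns receptors from late endosomes to the Golgi, averaged 2.98 and was highest in MYC TAM mouse 2, at 4.01. Neither passed in the main limma fit, with differences between MYC TAMs and control TAMs of -0.15 for Rab24 and 0.42 for Rab9.

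The 17 members listed under the endoplasmic reticulum and Golgi held 4 of the 9 calls in MYC TAMs against control TAMs, 2 higher and 2 lower. That is 23.5% of the list, beside 15.9% of all genes, with a list median of -0.12 beside -0.02. The list is a grouping by role, and Rab34 and Rab39 in it are also known from other organelles. Rab34 is known for placing lysosomes near the nucleus and for cilium formation. Rab34 measured 3.68, 3.48 and 3.16 in MYC TAMs, 2.74 and 2.97 in MYC MTMs, 2.77, 2.12 and 1.72 in control TAMs, and 2.11, 2.95 and 2.47 in control MTMs. MYC TAMs were the highest group and did not overlap with any other. They exceeded control TAMs by 1.24 ± 0.30 (adjusted p = 0.0217). With the control TAM library of mouse 3 or 5 left out the call was lost (adjusted p = 0.0740 and 0.0770), and likewise with the MYC TAM library of mouse 2 (0.0737) or 4 (0.0698). Rab19 and Rab43 are close relatives that act at the Golgi, and they differed in opposite directions. Rab19 measured 2.02, 2.89 and 2.92 in MYC TAMs, 1.24 and 1.92 in MYC MTMs, 0.99, 1.32 and 0.95 in control TAMs, and 1.37, 1.91 and 1.36 in control MTMs. The MYC TAM libraries lay above every other library, by 1.52 ± 0.30 over control TAMs (adjusted p = 0.00894), and the call was lost when MYC TAM mice 4 and 6 were both left out (adjusted p = 0.146).

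Rab43 measured 1.04, 1.47 and 1.25 in MYC TAMs, 2.00 and 2.21 in MYC MTMs, 2.36, 2.36 and 2.51 in control TAMs, and 2.13, 1.71 and 2.10 in control MTMs. In the MYC TAM libraries Rab43 lay below every other library. It differed from control TAMs by -1.16 ± 0.19 (means 1.25 ± 0.215 and 2.41 ± 0.0877, SD, n = 3 each; adjusted p = 0.00352) and passed in all 21 alternatives that gave a value, with adjusted p from 0.00119 to 0.0320. The cell types differed in opposite directions in the 2 genotypes, by -0.86 in MYC mice, where TAMs were the lower group (adjusted p = 0.0584, and 0.0387 with the mouse as a random block), and by 0.43 in control mice, where TAMs were the higher group (adjusted p = 0.423), each without overlap. That difference of differences was -1.29 with an adjusted p of 0.0753, and it passed with the mouse as a random block (0.0468), without the variance trend (0.0278) and when genes averaging under 1 were dropped (0.0355). GENCODE annotates a same-strand gene, Gm45140, over 75.4% of the exonic bases of Rab43, so the count may be shared with it.

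The 250 bases before the upstream RefSeq start of Rab43 (GRCm38.p6, chr6:87812165-87812414, minus strand, 58% G or C) are shown since its call was as stable as that of Rab7. Capitals mark 2 GC boxes. The windows of its other 3 RefSeq starts hold 2, 5 and 0.
Rab43: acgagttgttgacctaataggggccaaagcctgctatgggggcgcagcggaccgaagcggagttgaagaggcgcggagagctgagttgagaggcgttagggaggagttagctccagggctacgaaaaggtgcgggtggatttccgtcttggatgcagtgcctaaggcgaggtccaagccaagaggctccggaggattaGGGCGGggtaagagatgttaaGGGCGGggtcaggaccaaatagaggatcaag

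Rab39 measured 0.0894, 0.0769 and 0.0749 in MYC TAMs, 0.29 and 0.26 in MYC MTMs, 0.49, 0.35 and 0.45 in control TAMs, and 0.58, 0.68 and 0.46 in control MTMs. Rab39 acts on endosomes and in autophagy. In MYC TAMs it had 3.0 to 5.0 estimated reads per library, against 23.9 to 33.8 in control TAMs, and MYC TAMs were the lowest group without overlap. The difference of -0.35 ± 0.07 (adjusted p = 0.00959) is compressed by the added 1, and it was lost after centring on library medians (adjusted p = 0.436) and when MYC TAM mice 4 and 6 were both left out (0.0572).

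Rab6a, which moves carriers within and out of the Golgi, carried the only call between MYC TAMs and MYC MTMs in the main limma fit. Rab6a measured 3.31, 3.43 and 3.48 in MYC TAMs, 4.09 and 4.08 in MYC MTMs, 3.32, 3.66 and 3.73 in control TAMs, and 3.98, 3.94 and 3.93 in control MTMs. All MYC TAM libraries lay below both MYC MTM libraries, by -0.68 ± 0.16 (adjusted p = 0.0420). The call was lost in 16 of 22 alternatives, among them leaving out MYC MTM mouse 2 (adjusted p = 0.263) or 4 (0.228), and any 1 other library except control TAM mouse 1 and MYC TAM mouse 6. For Rab6a 19.0% of its exonic bases lie opposite to exons of Mrpl48.

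Rab2a measured 7.32, 6.96 and 6.79 in MYC TAMs, 7.02 and 7.28 in MYC MTMs, 6.94, 7.25 and 7.24 in control TAMs, and 6.86, 7.31 and 7.06 in control MTMs. Rab1b measured 6.53, 6.40 and 6.62 in MYC TAMs, 7.03 and 6.84 in MYC MTMs, 6.85, 7.06 and 6.98 in control TAMs, and 7.21, 6.82 and 7.06 in control MTMs. Rab1b lay lower in MYC TAMs than in the other groups without overlap, by -0.45 from control TAMs, but did not pass (adjusted p = 0.0629). It passed without the variance trend (0.0347) and without control MTM mouse 3 (0.0420). Rab18 measured 6.15, 6.36 and 6.39 in MYC TAMs, 6.76 and 6.57 in MYC MTMs, 6.01, 6.44 and 6.48 in control TAMs, and 6.71, 6.94 and 6.72 in control MTMs. For Rab18 every TAM library lay below every MTM library, by -0.48 in controls (adjusted p = 0.208) and -0.37 in MYC mice (adjusted p = 0.349). Rab1 was the less abundant of its pair, since Rab1b exceeded it in 11 of 11 libraries, 2.06 to 4.69 times. Rab7l1, linked to the Golgi and lysosomes, stood out in control MTMs at 5.26 to 5.33, against 3.73 to 4.61 in MYC TAMs, 4.05 and 4.31 in MYC MTMs and 3.75 to 4.61 in control TAMs. Its control MTM libraries overlapped with no other group, and neither comparison with them passed (adjusted p = 0.0903 for control TAMs and 0.170 for MYC MTMs).

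Of the 8 early endosome and phagosome members, the Rab5 paralogs, which organise early endosomes, showed no call in the main limma fit. Rab5a measured 4.03, 5.47 and 5.56 in MYC TAMs, 5.75 and 5.68 in MYC MTMs, 5.09, 5.21 and 5.51 in control TAMs, and 5.04, 5.61 and 6.10 in control MTMs. MYC TAM mouse 2 was the lowest library for Rab5a. Rab5b measured 4.43, 4.19 and 4.51 in MYC TAMs, 4.68 and 4.47 in MYC MTMs, 4.23, 4.26 and 4.32 in control TAMs, and 4.80, 4.59 and 4.48 in control MTMs. Rab5c measured 3.97, 3.32 and 4.52 in MYC TAMs, 5.02 and 4.55 in MYC MTMs, 4.57, 4.54 and 4.51 in control TAMs, and 4.01, 4.54 and 4.34 in control MTMs. Rab5a exceeded Rab5c in 11 of 11 libraries and Rab5b in 10. For Rab5b and Rab5c neither dominated, with Rab5b the higher in 5 of 11. For Rab5c MYC TAMs lay below MYC MTMs without overlap, by -0.85 (adjusted p = 0.192), while MYC MTMs lay above control MTMs.

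Rab20 measured 4.29, 4.76 and 3.67 in MYC TAMs, 3.40 and 3.95 in MYC MTMs, 4.42, 4.37 and 4.44 in control TAMs, and 3.01, 3.47 and 3.54 in control MTMs. Rab20 is known for the maturation of macrophage phagosomes. Control TAMs lay above control MTMs without overlap, by 1.07 (adjusted p = 0.0905), and the other comparisons overlapped. Rab31 measured 5.10, 5.37 and 5.40 in MYC TAMs, 6.24 and 5.89 in MYC MTMs, 4.64, 4.42 and 5.01 in control TAMs, and 5.90, 5.64 and 6.12 in control MTMs. Rab31, which serves transport between the trans-Golgi network and endosomes, fell in control TAMs, with a difference of -1.20 ± 0.19 from control MTMs (means 4.69 ± 0.297 and 5.89 ± 0.239, SD, n = 3 each; adjusted p = 0.0116). TAM libraries were below MTM libraries in both genotypes without overlap, and the difference in MYC mice was -0.77 (adjusted p = 0.0887). MYC TAMs also lay above control TAMs without overlap, by 0.60 (adjusted p = 0.0656). That difference passed when genes averaging under 1 were dropped (0.0465) and after quantile normalisation (0.0432). It also passed after centring on library medians (0.0215) and without control TAM mouse 5 (0.0415). The control call was lost without control MTM mouse 1 (adjusted p = 0.0521) or 5 (0.0571), without control TAM mouse 1 (0.0589), and with only the groups compared (0.0868). Rab17 measured 0.0892, 0.0859 and 0.0269 in MYC TAMs, 0.16 and 0.53 in MYC MTMs, 0.72, 1.72 and 0.88 in control TAMs, and 0.46, 1.54 and 1.13 in control MTMs. Rab17, known from transcytosis in polarised epithelia, had 0.2 to 3.0 estimated reads in MYC TAMs and 35.9 to 137.8 in control TAMs. The difference was -1.04 ± 0.31 (adjusted p = 0.0477), a value that depends on the added 1 and is no bound, and it was lost in 13 of 20 alternatives, among them leaving out control MTM mouse 5, control TAM mouse 3 or 5, or any 1 of the MYC libraries (adjusted p from 0.0681 upward).

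Of the 8 recycling members, Rab25 passed in MYC TAMs against control TAMs and Rab4a in MYC MTMs against control MTMs. Each is 12.5% of the list, beside 15.9% and 0.618% of all genes. Rab11a measured 6.20, 5.57 and 5.92 in MYC TAMs, 6.18 and 6.02 in MYC MTMs, 5.41, 5.53 and 5.72 in control TAMs, and 6.03, 6.32 and 6.01 in control MTMs. Rab11a returns cargo through the recycling endosome, and its control TAM libraries lay below the control MTM ones without overlap, by -0.56 (adjusted p = 0.186). Rab14 measured 1.13, 2.04 and 0.58 in MYC TAMs, 2.31 and 0.93 in MYC MTMs, 1.93, 2.04 and 2.35 in control TAMs, and 0.73, 2.41 and 2.38 in control MTMs. Rab14, which acts between the Golgi and endosomes and on phagosomes, had a pooled SD of 0.753, with a narrower spread in control TAMs (SD 0.217). Rab11b scattered more, with a pooled SD of 1.18 and values of 0.26 to 4.06, so that Rab11a exceeded Rab11b by between 2.66 and 401 times. Rab4a measured 4.04, 3.86 and 3.37 in MYC TAMs, 2.52 and 3.02 in MYC MTMs, 4.37, 4.80 and 4.26 in control TAMs, and 4.11, 4.67 and 4.14 in control MTMs. Rab4a drives rapid recycling from early endosomes, and its lowest values were the 2 MYC MTM libraries. They fell by 1.53 ± 0.28 on the log2 scale relative to control MTMs (means 2.77 ± 0.357, n = 2, and 4.31 ± 0.315, n = 3, SD; adjusted p = 0.0497). The call was lost in 14 of 21 alternatives, among them leaving out any 1 library other than MYC TAM mouse 6 (adjusted p = 0.0559 to 0.450). Between MYC TAMs and MYC MTMs Rab4a passed only in alternatives, as higher in TAMs. These were quantile normalisation (1.17, adjusted p = 0.0412), centring on library medians (1.15, 0.0486), leaving out MYC TAM mouse 6 (0.0423), and an epithelial marker covariate (1.43, 0.0145).

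Rab25 measured 1.92, 1.06 and 0.46 in MYC TAMs, 2.45 and 2.47 in MYC MTMs, 2.36, 3.96 and 3.52 in control TAMs, and 2.66, 3.36 and 3.24 in control MTMs. Rab25, an epithelial relative of Rab11, was lowest in MYC TAMs, with no overlap with any other group. It differed from control TAMs by -2.13 ± 0.46 (adjusted p = 0.0118), and the call was lost without MYC TAM mouse 4 (adjusted p = 0.0518), without mice 4 and 6 (0.203) and with only the groups compared (0.0661).

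Rab25, Rab17 and the mean level of mammary epithelial markers were all lowest in MYC TAM mouse 6 and highest in control TAM mouse 3. No association was computed, and in MYC TAM mouse 2 Rab17 was at 0.0892 with the markers at 3.39. Of 20 epithelial markers 18 were measured, and none was at 0 throughout a group. Past the threshold, 10 of them fell and none rose in MYC TAMs against control TAMs, beside 12% and 3.89% of all genes. Below it, Krt14, Krt5 and Csn2 averaged higher in MYC TAMs (4.08, 1.79 and 1.52) than in control TAMs (2.92, 1.26 and 0.44). The other markers averaged lower. Their mean log2 level was 3.39, 2.44 and 1.42 in MYC TAMs, 3.43 and 3.44 in MYC MTMs, 4.00, 4.84 and 3.98 in control TAMs, and 3.66, 4.32 and 3.80 in control MTMs. Summed per-length levels of these 18 markers were 49.8 to 633 in MYC TAMs, 510 and 585 in MYC MTMs, 1288 to 2830 in control TAMs and 927 to 2099 in control MTMs. With that mean level as a covariate, an alternative chosen after seeing the data, the Rab25 difference between MYC TAMs and control TAMs was -0.60 (adjusted p = 0.637) and that of Rab17 -0.40 (adjusted p = 0.783). The covariate left 2 members past the threshold in that comparison, Rab7 at 0.83 (adjusted p = 0.0367) and Rab43 at -1.44 (adjusted p = 0.0320). Its levels did not overlap between these groups, so this fit cannot tell the marker level and the genotype apart. Of the other members that no longer passed, Rab10 was at -0.58 (adjusted p = 0.196), Rab39 at -0.35 (0.160), Rab34 at 1.75 (0.0751), Rab13 at 0.60 (0.324) and Rab19 at 1.19 (0.240). The differences of Rab10 and Rab39 were thus as large as without the covariate, that of Rab34 was larger, and those of Rab13 and Rab19 were smaller. The part of epithelial transcripts in these calls was not tested.

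**Figure D4:**
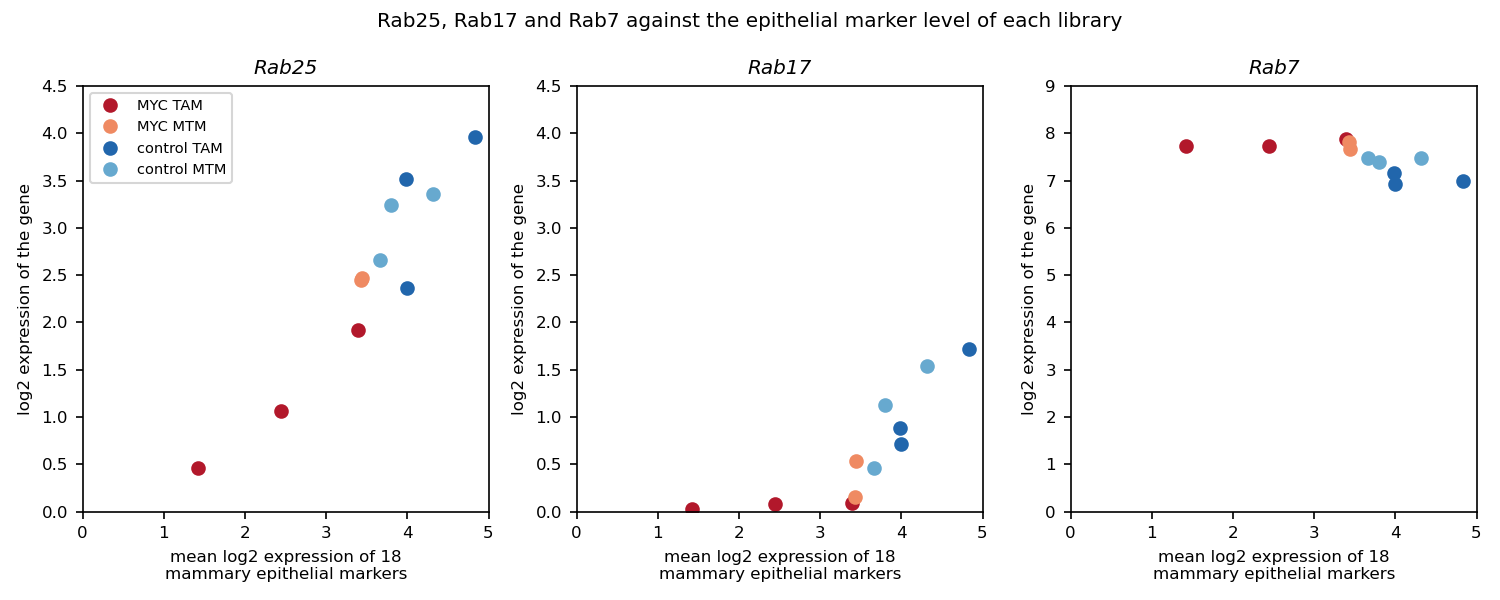
Log2 expression of Rab25, Rab17 and Rab7 (y axes) against the mean log2 expression of 18 mammary epithelial markers (x axis), 1 point per library. Rab25 spans 0.46 to 3.96 and lies lowest where the markers do, at 1.42, while Rab7 stays between 6.93 and 7.87.

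The 4 members of lysosome-related organelles gave no call in any comparison of the main limma fit. Their median difference between MYC TAMs and control TAMs was -0.53, with all 4 below 0 (-1.03 to -0.25), beside -0.02 for all genes. All 4 had an unadjusted p below 0.05, as did 28% of all genes. Rab32 measured 4.02, 4.33 and 4.74 in MYC TAMs, 4.78 and 4.60 in MYC MTMs, 4.92, 4.89 and 5.39 in control TAMs, and 4.76, 5.34 and 5.16 in control MTMs. Rab27a measured 0.85, 1.65 and 1.21 in MYC TAMs, 1.44 and 1.38 in MYC MTMs, 1.84, 2.82 and 2.14 in control TAMs, and 1.89, 2.48 and 1.63 in control MTMs. MYC TAMs lay below control TAMs without overlap for both, by -0.71 for Rab32 (adjusted p = 0.0674) and -1.03 for Rab27a (adjusted p = 0.0598), which docks secretory granules. When genes averaging under 1 were dropped, Rab27a and Rab32 passed (adjusted p = 0.0302 and 0.0447). Rab38 measured 0.0361, 0.0361 and 0.28 in MYC TAMs, 0.24 and 0.29 in MYC MTMs, 0.22, 0.58 and 0.59 in control TAMs, and 0.97, 0.81 and 0.70 in control MTMs. Rab27b measured 0.00542, 0.20 and 0.0132 in MYC TAMs, 0.0615 and 0.0657 in MYC MTMs, 0.20, 0.51 and 0.26 in control TAMs, and 0.32, 0.40 and 0.22 in control MTMs. In MYC TAMs Rab38 had no read in 2 of the 3 libraries. Rab32, which with Rab38 supplies lysosome-related organelles, exceeded Rab38 in all libraries, by a median of 103 times, and Rab27a exceeded Rab27b by a median of 16.9 times.

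Of 11 exocytosis and polarised transport members, 2 passed in MYC TAMs against control TAMs (18.2%, beside 15.9% of all genes), in opposite directions. Rab13 measured 2.73, 2.59 and 3.04 in MYC TAMs, 2.90 and 3.17 in MYC MTMs, 1.94, 2.20 and 2.18 in control TAMs, and 2.89, 3.23 and 3.03 in control MTMs. Control TAMs stood below every other group for Rab13, known from tight junctions and vesicle delivery. MYC TAMs exceeded them by 0.68 ± 0.18 (adjusted p = 0.0298), and control TAMs differed from control MTMs by -0.94 ± 0.18 (adjusted p = 0.0250). Both comparisons share the control TAM libraries. The first call was lost in 8 of 21 alternatives, among them leaving out any 1 control TAM library or MYC TAM mouse 2 or 6 (adjusted p = 0.0619 to 0.0851). The second was lost in 9 of 22, among them leaving out any 1 control library (0.0562 to 0.108). Rab10 measured 4.90, 5.14 and 5.06 in MYC TAMs, 5.44 and 5.51 in MYC MTMs, 5.44, 5.73 and 5.66 in control TAMs, and 5.40, 5.64 and 5.73 in control MTMs. Rab10, which carries vesicles to the plasma membrane, was lowest in MYC TAMs without overlap with any group, at -0.58 ± 0.14 from control TAMs (adjusted p = 0.0194). Centring on library medians ended that call (adjusted p = 0.109), as did leaving out the control TAM library of mouse 3 (0.0786) or 5 (0.0667) or the MYC TAM library of mouse 2 (0.0596). The other 9 members did not pass in any of the 5 comparisons of the main limma fit. Their differences between MYC TAMs and control TAMs ran from -0.80 for Rab26 to 0.34 for Rab12.

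**Figure D5:**
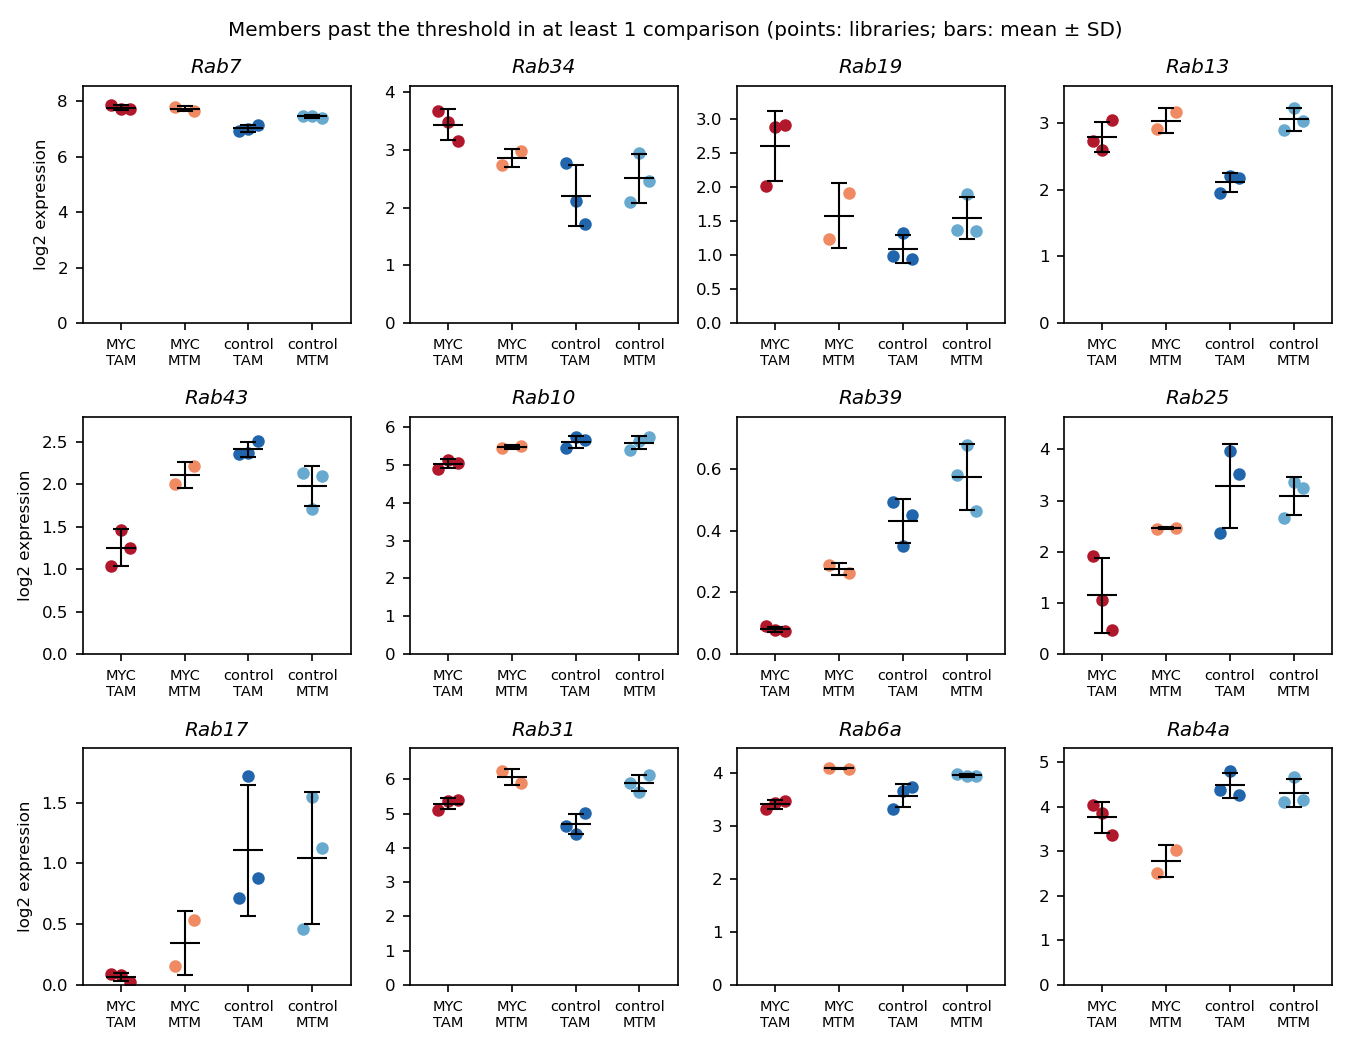
Log2 expression (y axes) of the 12 members past the threshold in at least 1 comparison, in 11 libraries (points) with group mean and SD (bars), groups along the x axis. For Rab7 the MYC TAM points sit between 7.73 and 7.87 and the control TAM points between 6.93 and 7.16, and for Rab43 they sit between 1.04 and 1.47 and between 2.36 and 2.51.

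The 5 members grouped as cilium and others gave no call in the main limma fit, and 1 had an unadjusted p below 0.05 in MYC TAMs against control TAMs (28% of all genes). Rab28 differed by -0.52 between control TAMs and control MTMs. It passed there without the variance trend (adjusted p = 0.0365) and with only the groups compared (0.0354). In MYC TAMs against control TAMs Rab28 passed after quantile normalisation (0.0220), after centring on library medians (0.0364) and without MYC TAM mouse 6 (0.0383). Rab28 was at 5.13 to 5.56 in MYC TAMs and 5.03 to 5.06 in control TAMs, a difference of 0.30 without overlap (adjusted p = 0.160), and Rab40c differed by 1.23 between MYC TAMs and MYC MTMs, also without overlap (adjusted p = 0.154).

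The remaining members are given by their lowest and highest level over the 11 libraries, and none of them passed in the main limma fit. Some passed in alternatives. After quantile normalisation Rab3b passed in MYC TAMs against MYC MTMs (adjusted p = 0.0100) and in MYC MTMs against control MTMs (0.0487). Of the Golgi and endoplasmic reticulum members, Rab1 spanned 4.67 to 5.82, Rab2b 1.67 to 3.36, Rab6b 0.0498 at its lowest with a mean of 0.48, Rab30 0.0428 to 1.16, Rab33a 0.0456 to 0.48, Rab33b 0.170 to 0.60, Rab36 0.0502 to 0.40 and Rab39b 0.0160 to 0.0981. Rab1 was the only one of these above 4 in any library, and Rab33a, Rab33b, Rab36 and Rab39b stayed under 1 in all of them. Of the early endosome members, Rab21 spanned 0.75 to 1.78 and Rab22a, which acts in endosome sorting, 1.45 to 3.04. Of the recycling members, Rab4b spanned 1.55 to 1.86, the narrowest range of the 4, beside Rab11b above, Rab15 at 0.10 to 1.97 and Rab35 at 0.32 to 0.98. Of the exocytosis members other than Rab10 and Rab13, the most abundant were Rab8a and Rab8b, which carry vesicles to the plasma membrane, at 4.72 to 5.43 and 4.12 to 6.00. The Rab3 genes, known from regulated secretion, spanned 1.31 to 2.09 (Rab3a), 0.0402 to 0.53 (Rab3b) and 1.77 to 2.60 (Rab3d). Rab12 spanned 0.36 to 1.35, Rab26 0.0190 to 1.55, Rab37 0.0461 to 0.86 and Rab44 0.0133 to 0.0673, and Rab44 had at most 5.0 estimated reads in a library. Of the cilium group, Rab23 spanned 0.38 to 0.70, Rab40b 0.0267 to 0.82, Rab40c 1.13 to 3.38 and Rab42 0.24 to 1.35, and Rab9 of the late endosome spanned 2.59 to 4.01.

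Because MYC binds the E-box CACGTG, the RefSeq promoter windows (GRCm38.p6, 250 bases before and 50 after each start) were searched for it on both strands. Of 56 members 46 have an entry, with 58 windows in all, and 6 members hold the motif, in 10.3% of the members' windows beside 7.15% of all 32851 windows. The form with a leading T, TCACGTG, which holds the shorter one, was found for 4 members, in 6.90% of the members' windows and 3.77% of all. GGGCGG, searched after the data were seen, was present in 67.2% of the members' windows and 35.7% of all. None of the 6 members with CACGTG passed in the main limma fit. They are shown with up to 30 bases around the motif in capitals, in lower case otherwise.
Rab5a (chr17:53478987-53479016, plus strand): aattggagaagaCACGTGacgcaaccccac
Rab20 (chr8:11478669-11478698, minus strand): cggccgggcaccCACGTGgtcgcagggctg
Rab21 (chr10:115315604-115315633, minus strand): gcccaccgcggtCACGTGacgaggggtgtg
Rab23 (chr1:33719666-33719695, plus strand): cttcagtgctacCACGTGagtctcaggtgg
Rab24 (chr13:55321961-55321990, minus strand): cggcgcccgcgtCACGTGaccgggcgtccc
Rab27a (chr9:73063898-73063919, plus strand): cttgCACGTGctcctccgtctg
The motif begins 235 bases before the start in Rab5a, 46 in Rab20, 30 in Rab21, 218 in Rab23 and 246 in Rab27a, and lies within the transcript in Rab24. A match describes these letters and not binding. In MYC TAMs against control TAMs these genes differed by -0.25 (Rab5a), -0.17 (Rab20), 0.40 (Rab21), -0.06 (Rab23), -0.15 (Rab24) and -1.03 (Rab27a).

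Of 121 genes listed as acting on or through Rab proteins, 9 rose and 21 fell in MYC TAMs against control TAMs. That is 24.8% beside 15.9% of all genes, with a median of -0.13 beside -0.02. The 15.9% includes many genes averaging under 1. When those were dropped, 2656 of 9375 genes passed, 650 higher and 2006 lower, with a median of -0.21. No excess is therefore read from the shares of the lists. Centring on library medians turned that split to 17 higher and 15 lower, and the epithelial covariate left 6 higher and 10 lower. Of 18 genes listed as late endosome and lysosome effectors 4 were higher and none lower (22.2%, beside 15.9% of all genes), with a median of 0.36. That list is a grouping by role and is not limited to effectors of Rab7. Without MYC TAM mice 4 and 6 the effectors were 2 higher and 2 lower, with the epithelial covariate 1 and 1, and without control TAM mouse 3 they were 2 and 0. The 4 genes were Rilpl2, which resembles the Rab7 effector Rilp, at 2.20 ± 0.16 (means 7.41 ± 0.101 and 5.21 ± 0.173, SD, n = 3 each; adjusted p = 4.37e-05), the Rab7 effector gene Wdr91 at 1.98 (adjusted p = 0.00133), Plekhm2, which links lysosomes to kinesin, at 0.91 (adjusted p = 0.0208), and Vps11, a core tether subunit, at 0.67 (adjusted p = 0.0208). Leaving out the control TAM library of mouse 1 or 3 or the MYC TAM library of mouse 2 ended the call of Plekhm2 (adjusted p = 0.0618, 0.0814 and 0.0642). For Vps11 the control TAM library of mouse 3 or 5 or the MYC TAM library of mouse 4 did so (0.0776, 0.0634 and 0.0566), and the epithelial covariate ended both calls and that of Wdr91 (0.0865). Among 29 GTPase-activating proteins 2 rose and 5 fell (24.1%, beside 15.9% of all genes). One that fell was Tbc1d5 (-0.90, adjusted p = 0.00437), a call lost only with the epithelial covariate (0.124). Tbc1d2 averaged 3.07 ± 0.268 in MYC TAMs and 0.46 ± 0.241 in control TAMs (SD, n = 3 each; 2.61 ± 0.22, adjusted p = 8.96e-05). Tbc1d15 was higher by 1.66 (adjusted p = 0.000451), and Tbc1d8 fell by 2.24 on the log2 scale (adjusted p = 0.000143). Rilpl2, Tbc1d2, Tbc1d15 and Tbc1d8 passed in all 21 alternatives that gave a value.

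In MYC TAMs against control TAMs exchange factors fell in 7 of 30 members and rose in 1 (26.7%). Beside this list and those that follow, 15.9% of all genes passed (3.89% higher, 12% lower). When genes averaging under 1 were dropped, 650 of 9375 genes passed as higher and 2006 as lower. Rin1, one of the 7, averaged 0.05 in MYC TAMs and 0.44 in control TAMs, and its call was lost in 7 of 20 alternatives. The 1 that rose was Dennd4c (1.66, adjusted p = 0.0152). Dennd4c did not pass once the library of control TAM mouse 1 (0.0506) or 3 (0.0555) or that of MYC TAM mouse 4 (0.0607) was left out. Hps4, a subunit of the BLOC-3 exchange factor for Rab32 and Rab38, averaged 2.32 ± 0.556 in MYC TAMs and 4.10 ± 0.225 in control TAMs (SD, n = 3 each; -1.78, adjusted p = 0.00188). The Rab5 exchange factor gene Rin2 fell by 1.09 on the log2 scale (adjusted p = 0.00549). Of 8 genes for prenylation and membrane extraction, Rabac1, a prenylated Rab acceptor, rose (1.62, adjusted p = 0.00352), while Gdi2, which holds Rab proteins in the cytosol (-1.07, adjusted p = 0.00616), and Rabggtb, a subunit of the enzyme that adds the geranylgeranyl lipid (-0.59, adjusted p = 0.00793), fell. The call of Rabggtb was lost after centring on library medians (adjusted p = 0.116), and that of Gdi2 without MYC TAM mice 4 and 6 (0.0904). Among 16 secretory and Rab27 effectors 1 rose, Optn, an effector of Rab8 (2.08, adjusted p = 0.00190), and 4 fell, among them the Rab27 effector genes Mlph (-2.12, adjusted p = 0.00136) and Sytl1 (-2.71, adjusted p = 0.00549). Without MYC TAM mice 4 and 6 Sytl1 did not pass (adjusted p = 0.102). Of 9 early endosome effectors none passed in MYC TAMs against control TAMs in limma, and 2 had an unadjusted p below 0.05, beside 28% of all genes. In MYC TAMs against MYC MTMs 1 of them, Zfyve20, fell (-0.91, adjusted p = 0.0483), a call lost in 16 of 22 alternatives, among them leaving out any 1 library except control MTM mouse 1 or 3 (up to 0.272). With the epithelial covariate Dennd4c, Gdi2, Rabggtb, Mlph, Sytl1 and Ehd1 did not pass (adjusted p = 0.0569 to 0.715), while Hps4, Rin2, Rabac1 and Optn passed in all 21 alternatives.

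Recycling effectors fell in 3 of 11 members in MYC TAMs against control TAMs (27.3%), beside 12% of all genes that fell. Of these, Rab11fip4 averaged 0.18 in MYC TAMs and 0.65 in control TAMs, and its call was lost in 15 of 20 alternatives. The call of Ehd4 was lost in 8 of 21. Ehd1, which shapes recycling tubules, averaged 1.17 ± 0.0911 in MYC TAMs and 2.99 ± 0.230 in control TAMs (SD, n = 3 each; -1.82 ± 0.26, adjusted p = 0.00157). Ehd1 also fell in MYC TAMs relative to MYC MTMs (-2.74, adjusted p = 0.00117). It was the only one of the 121 genes to pass the difference of differences (-2.30 ± 0.39, adjusted p = 0.0278), a call lost in 13 of 21 alternatives, among them leaving out any 1 library except control MTM mouse 3, control TAM mouse 1 and MYC TAM mouse 6 (up to 0.157). For the difference of differences 0.83% of the 121 genes passed, beside 1.24% of all genes. In MYC TAMs against MYC MTMs 3 of the 121 rose and 6 fell (7.44%, beside 4.49% of all genes). In MYC MTMs against control MTMs 2 of the 121 rose (1.65%, beside 0.618%), namely Tbc1d2 (1.66, adjusted p = 0.0206) and Rilpl2 (1.43, adjusted p = 0.00945). When genes averaging under 1 were dropped, 946 and 151 of 9375 genes passed in these 2 comparisons. In control TAMs against control MTMs Mical1 rose (1.14, adjusted p = 0.0367) and Rilp fell (-1.34, adjusted p = 0.0383), 1.65% beside 2.37%. The call of Tbc1d2 in MTMs was lost without control MTM mouse 3 or 5 or either MYC MTM mouse (adjusted p = 0.0642 to 0.179), and that of Rilpl2 without MYC MTM mouse 4 (0.0954). The call of Mical1 was lost in 10 of 22 alternatives, without any 1 control library or MYC MTM mouse among them, and that of Rilp in 14, without control MTM mouse 1 or 5, any 1 control TAM mouse, either MYC MTM mouse or MYC TAM mouse 2 among them (adjusted p up to 0.128 and 0.159).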

How the data were processed

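RNA was measured in 11 sorted macrophage libraries from 6 mice. Per the labels' protocols, 500 ng of RNA (RIN 3.3 to 9.6) went through polyA selection and a stranded TruSeq kit with 8 PCR cycles. The submitters' processing notes name HISAT2, DESeq2, mm10 and GRCm38.p5. The authors deposited 1 log2 expression value per gene and library. The values behave as log2(x + 1.00), with x scaled reads per gene length, since 10931 of 10931 low values were whole reads within a tolerance of 0.05. Estimated reads, library depths and the exonic lengths behind them (GENCODE M21, GRCm38) were derived from this, and cover counting error only.

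All 17475 genes were fitted with limma 3.58.1 in R 4.3.3, with a mean per group over 11 libraries, a variance trend, two-sided tests and Benjamini-Hochberg adjustment at 0.05. Fold changes are on the log2(x + 1) scale, which understates low genes. The script was tested on simulated data. The labels' replicate numbers are mouse numbers, so TAMs and MTMs with the same number share an animal. Deviations of same-mouse libraries correlated at 0.176, 0.211 and 0.0779 in controls and at 0.0983 and 0.0379 in MYC mice. Nothing says that tumours of a group were processed separately, so p-values measure the spread between these sorted libraries. Groups compared share libraries: control TAMs and MYC TAMs, for example, enter 2 comparisons each.

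Values of every library are given for members past the threshold, the 5 most abundant, and 12 measured members of the phagosome and lysosome route. Other members are given by their range over the libraries. The members, role lists, pathway lists and marker lists were chosen with earlier results of these data known. Alternatives were the mouse as a block, no variance trend, a filter on low means, other pseudocounts, other scalings, fewer groups, left-out libraries and an epithelial covariate. Promoters are from RefSeq. A count test was not run, because the deposited values are log expression. Reads of most genes were estimated from annotated exonic lengths.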

Additional observations from a re-analysis of the deposited data

How the results depend on the processing

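Of the 13 calls of Rab members, those of Rab7 and Rab43 in MYC TAMs against control TAMs passed in every alternative that gave a value, and no call changed sign. Leaving out 1 library at a time, Rab members past the threshold numbered 0 to 5 in control TAMs against control MTMs, 0 to 3 in MYC TAMs against MYC MTMs, 5 to 11 in MYC TAMs against control TAMs, 0 to 1 in MYC MTMs against control MTMs and 0 to 0 for the difference of differences. Genes numbered 214 to 537, 163 to 1031, 1734 to 2996, 23 to 128 and 21 to 301 in the same order. With the mouse as a fixed block, called genes were 255 in control TAMs against MTMs (414 without it), 476 in MYC TAMs against MTMs (784 without it) and 31 for the difference of differences (216 without it), and this block gives no value for comparisons between genotypes. With the mouse as a random block (correlation 0.127) 2 members passed in MYC TAMs against MTMs, and 1 member and 325 genes in the difference of differences. The block changed no calls of members beyond those given with the comparisons.

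Without the variance trend 4 members passed in control TAMs against MTMs, 2 in MYC TAMs against MTMs, 0 in MYC MTMs against control MTMs and 1 in the difference of differences. With genes averaging under 1 dropped, 2 members passed in MYC TAMs against MTMs, and 1 member and 327 genes in the difference of differences. A pseudocount of 5 left 0 members in MYC MTMs against control MTMs. Quantile normalisation gave 2 members in MYC TAMs against MTMs and 2 in MYC MTMs against control MTMs. Centring on library medians gave 5029 genes in MYC TAMs against control TAMs and 129 in the difference of differences. With only the groups compared, genes and members were 196 and 1 in control TAMs against MTMs, 90 and 0 in MYC TAMs against MTMs, 1547 and 4 in MYC TAMs against control TAMs, and 0 and 0 in MYC MTMs against control MTMs, where 9 members (16.1%) and 10.1% of all genes had an unadjusted p below 0.05 with all groups. Without MYC TAM mice 4 and 6, members numbered 4, 2, 4 and 0 in the same 4 comparisons, and 424 genes passed the difference of differences. With the epithelial covariate 3 members passed in MYC TAMs against MTMs, 1194 genes and 2 members in MYC TAMs against control TAMs, and 81 genes in the difference of differences. Where an alternative leaves 1 library in a group, that library is assumed to vary like those of the other groups. The cause of these changes was not tested. Groups of 2 and 3 libraries limit every comparison, and Rab17, Rab38, Rab27b and Rab39 rest on few reads.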

Other observations

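Marker lists of other cell types were read in MYC TAMs against control TAMs. Past the same threshold, 12% of all genes fell and 3.89% rose in this comparison. At these shares 1 call in a short list is near the background, and no list was tested as a set. T and NK cell markers fell in 6 of 10, with summed per-length levels of 1.06 to 3.54 in MYC TAMs and 43.6 to 125 in control TAMs, and Cd3e was without a read in all 3 MYC TAM libraries. Dendritic cell markers fell in 3 of 7, B and plasma cell markers in 2 of 6, endothelial markers in 1 of 4, melanocyte and platelet markers in 2 of 5 and erythroid markers in 1 of 3. None of 7 fibroblast markers passed in limma, and 2 had an unadjusted p below 0.05, beside 28% of all genes. Neutrophil markers rose in 2 of 7, with summed levels of 68.7 to 120 in MYC TAMs and 53.8 to 74.1 in control TAMs. Of 5 eosinophil and mast cell markers 1 rose and 1 fell. Of 8 macrophage markers 2 rose and 3 fell, and of 7 sort gate genes 3 fell.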
